A study of Mus musculus with 18 samples.

Results

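The genes described are 9 that interferon is known to raise: the 5 core genes of the ISG15 conjugation system (Isg15, Uba7, Ube2l6, Herc6 and Usp18) and 4 genes of the Schlafen family (Slfn2, Slfn5, Slfn8 and Slfn9). They were taken by name from a table of 57180 genes, and all 9 were among the 15832 genes with enough counts to be tested. They were proposed with the response of interferon-stimulated genes to the Itgav siRNA in these libraries already known, so for these 9 genes the comparison of Itgav siRNA with scramble siRNA within a medium is given as a description without a test. Tests of a stimulus, or of a difference between siRNA comparisons, use the same libraries, so their p-values are not independent of that choice. The RNA came from smooth muscle cells isolated from thoracic aorta of C57BL/6 mice, with 3 libraries in each of 6 groups. The groups were Itgav siRNA with TGF-β, scramble siRNA with TGF-β, Itgav siRNA with PDGF-BB, scramble siRNA with PDGF-BB, Itgav siRNA without a stimulus and scramble siRNA without a stimulus. Itgav encodes the αV chain of integrins, scramble siRNA is a control without an intended target, and all groups share the transfection. TGF-β is a cytokine known to push such cells towards contraction and matrix production, and PDGF-BB is a growth factor that drives their proliferation and migration. The sources used here do not give doses, times, the number of siRNAs or whether the libraries of a group came from separate cultures. P-values therefore measure only the spread between libraries.

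ISG15 is a small protein made of a pair of ubiquitin-like folds that is joined to other proteins in steps like those of ubiquitin. UBA7 is the E1 enzyme that activates it, UBE2L6 the E2 enzyme that carries it and, in the mouse, HERC6 the main E3 ligase that passes it to its targets, while USP18 takes it off again and also binds the interferon receptor chain IFNAR2 to dampen its signal. Schlafens are a family that differs between mammals. Slfn2 is a short mouse member known for keeping T cells quiescent, and Slfn5, Slfn8 and Slfn9 are long members with a helicase-like region.

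The promoters of the genes are shown because interferon-response elements are where interferon regulatory factors bind. RefSeq promoter windows, from 250 bases before to 50 bases after an annotated start (build GRCm38.p6), were found for 8 of the 9 genes. The element's core was searched on both strands as GAAA, any 2 bases and GAAA again (TTTC, any 2 bases and TTTC where it lies on the opposite strand). Overlapping matches were all kept, and matches are in capitals. It occurred in the windows of 4 genes (Isg15, Slfn5, Slfn8 and Slfn9), against 3.44% of all 32851 windows. Another motif, the STAT core TTCNNNGAA, occurred in none of the 8, against 8.3% of all windows, which says only that these letters are not in these windows. A match is a description, not a site shown to be bound.
Isg15, chr4:156200769-156201068, minus strand: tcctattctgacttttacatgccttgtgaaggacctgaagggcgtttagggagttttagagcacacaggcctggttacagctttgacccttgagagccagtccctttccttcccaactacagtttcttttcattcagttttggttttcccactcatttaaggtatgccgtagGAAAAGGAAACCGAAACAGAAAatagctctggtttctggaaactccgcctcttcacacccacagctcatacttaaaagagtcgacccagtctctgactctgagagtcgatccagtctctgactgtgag
Slfn5, chr11:82951852-82952151, plus strand: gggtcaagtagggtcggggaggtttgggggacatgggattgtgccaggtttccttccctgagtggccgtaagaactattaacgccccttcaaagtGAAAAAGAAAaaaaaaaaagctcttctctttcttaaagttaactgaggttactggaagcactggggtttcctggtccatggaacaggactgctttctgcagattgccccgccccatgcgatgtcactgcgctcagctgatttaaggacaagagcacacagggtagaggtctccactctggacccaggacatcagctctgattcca
Slfn8, chr11:83020761-83021060, minus strand: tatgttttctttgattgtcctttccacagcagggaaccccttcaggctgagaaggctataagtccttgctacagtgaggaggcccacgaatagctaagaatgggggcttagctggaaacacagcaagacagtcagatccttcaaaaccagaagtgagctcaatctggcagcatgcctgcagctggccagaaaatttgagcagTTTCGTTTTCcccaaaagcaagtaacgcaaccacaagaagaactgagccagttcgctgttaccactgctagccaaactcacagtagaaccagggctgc
Slfn9, chr11:82991781-82992080, minus strand: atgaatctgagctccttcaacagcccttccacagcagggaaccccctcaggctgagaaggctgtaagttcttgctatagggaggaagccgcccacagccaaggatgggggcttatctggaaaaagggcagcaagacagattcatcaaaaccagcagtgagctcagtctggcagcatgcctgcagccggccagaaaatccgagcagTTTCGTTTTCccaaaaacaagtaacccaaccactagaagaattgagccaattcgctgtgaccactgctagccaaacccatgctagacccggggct
In Isg15 there were 3 matches, each sharing its last 4 bases with the first of the next, that started at positions -78, -72 and -66 from the gene start. Slfn5 held 1 match, at -155 from its RefSeq start. Slfn8 and Slfn9 held the same 10 letters on the strand opposite to the gene, at -48 in Slfn8 and -45 in Slfn9, and 248 of 292 aligned bases of their windows were identical (84.9%). Slfn8 has another annotated start, from which the same match lies at -136. The windows of Uba7, Herc6, Ube2l6 and Slfn2 held no match.

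**Figure D1:**
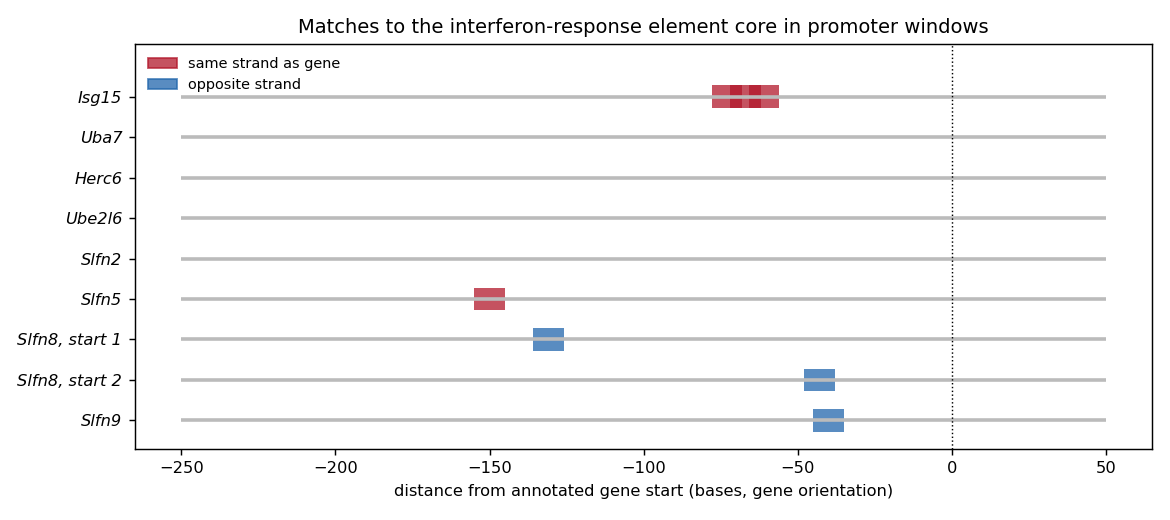
Matches to the interferon-response element core (GAAA, any 2 bases, GAAA) in the RefSeq promoter windows of 8 genes. The horizontal axis is the distance in bases from the annotated gene start (dotted line), grey lines are the windows, red boxes are matches on the gene's strand and blue boxes matches on the opposite strand. Isg15 has 3 overlapping matches close to its start, Slfn8 (2 annotated starts) and Slfn9 have 1 on the opposite strand, and 4 genes have none.

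The libraries held 17705072 to 21592916 counts. Itgav itself stood at 26.1, 29.7 and 25.3 CPM (counts scaled to the library total) in Itgav siRNA cells with TGF-β, against 548, 553 and 472 CPM in scramble cells with TGF-β. In Itgav siRNA cells 5.16% of the scramble mean was left with TGF-β, 7.13% with PDGF-BB and 4.77% without a stimulus. All 10 smooth muscle markers listed passed the filter on low counts, and their summed level was 6230 to 6330 CPM in Itgav siRNA cells against 11300 to 11600 CPM in scramble cells with TGF-β, 1370 to 1480 against 2120 to 2310 CPM with PDGF-BB, and 2670 to 2810 against 4190 to 4450 CPM without a stimulus. Singly, 10 were called lower with TGF-β, 7 lower and 2 higher with PDGF-BB, and 6 lower and 2 higher without a stimulus. The higher ones were Mylk (up by 0.24 ± 0.061 on the log2 scale with PDGF-BB and 0.4 ± 0.062 without a stimulus) and Synpo2 (0.5 ± 0.059 and 0.53 ± 0.06). Of 10 macrophage markers 5 passed, and the 10 summed to 12.1 to 14.9 against 9.32 to 10.7 CPM with TGF-β, 24.8 to 27 against 24.1 to 26 CPM with PDGF-BB, and 19.5 to 20.9 against 17.6 to 20.4 CPM without a stimulus. Adgre1, Itgam, Fcgr1, Aif1 and C1qa averaged at most 0.0713 CPM in any group, while Lyz2, Cd68, Cd14 and Csf1r were measured at higher levels. Their means with TGF-β were 5.6, 3.16, 2.35 and 1.65 CPM in Itgav siRNA cells against 4.4, 1.21, 1.96 and 1.81 CPM in scramble cells. Of the 5 that passed, 1 was called higher and 0 lower with TGF-β, and 1 higher and 1 lower with PDGF-BB. Without a stimulus 1 was called higher and 2 lower. The 9 lymphocyte markers summed to at most 1.66 CPM and the 5 dendritic cell markers to at most 0.221 CPM in any library, and Cd3e was at 0 in all 18. The sums of 8 endothelial markers overlapped with TGF-β (56.5 to 64 in Itgav siRNA cells against 58.3 to 71.5 CPM in scramble cells). They were lower in Itgav siRNA cells with PDGF-BB (74.7 to 88.3 against 95.8 to 108 CPM) and without a stimulus (64.2 to 79.3 against 80 to 93.7 CPM). Singly, 1 was called higher and 1 lower with TGF-β, 0 higher and 5 lower with PDGF-BB, and 1 higher and 4 lower without a stimulus. The 7 fibroblast markers summed to 32.2 to 36.3 against 37.6 to 38.6 CPM with TGF-β, but Cd34, the most abundant of them, was lower in Itgav siRNA cells in each medium (13.1 against 27.3 CPM with TGF-β, 66.7 against 128 CPM with PDGF-BB and 44.7 against 77.3 CPM without a stimulus), while other members were higher. Of the 7, 3 were called higher and 1 lower with TGF-β (Dpt up by 1.76 ± 0.17 on the log2 scale, Lum by 2.93 ± 0.48 and Pdgfra by 0.61 ± 0.11), 4 higher and 1 lower with PDGF-BB, and 5 higher and 1 lower without a stimulus (Scara5 up by 1.89 ± 0.16, Pi16 by 1.83 ± 0.48, Dpt by 1.04 ± 0.19, Pdgfra by 1.02 ± 0.097 and Clec3b by 1.01 ± 0.3), with Cd34 the lower one each time. Beside these marker calls, 24.1% of all genes tested were called higher and 24.3% lower with TGF-β. The shares were 29.4% and 29.9% with PDGF-BB, and 25.9% and 27.5% without a stimulus. In bulk RNA, fewer cells of a type and less RNA per cell cannot be told apart. The part of any such marker shift in the results below was not tested.

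A pair of libraries stood apart for these genes. Scramble unstimulated replicate 1 held 22.5% (Isg15) to 77.7% (Slfn9) of the mean of the other two scramble unstimulated libraries, lower for all 9 genes. Itgav siRNA PDGF-BB replicate 3 held 67% (Slfn2) to 80.7% (Slfn9) of the mean of the other two libraries of its group. The siRNA differences of the 9 genes in these media are given with and without them, and so are calls that change when one of them is left out.

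All 9 genes were higher in Itgav siRNA cells than in scramble cells in each medium, without overlap between the libraries. Loss of Itgav and any other effect that the siRNA may have cannot be told apart here. Of all genes tested, 28.1% with TGF-β, 31.2% with PDGF-BB and 30% without a stimulus also had their 3 Itgav siRNA libraries above their 3 scramble libraries, and since these comparisons were known when the genes were chosen nothing is read from the counts. Together the 9 genes made up 315, 302 and 322 CPM in Itgav siRNA cells with TGF-β, against 85.9, 82.7 and 91.9 CPM in scramble cells with TGF-β. With PDGF-BB the sums were 1210, 1260 and 931 CPM in Itgav siRNA cells against 115, 128 and 130 CPM in scramble cells, and without a stimulus 1260, 1150 and 1320 CPM against 104, 188 and 186 CPM. The median log2 fold change of the 9 genes was 1.31 with TGF-β, 2.43 with PDGF-BB and 2.54 without a stimulus, beside 0.01 over all genes in each medium. Without scramble unstimulated replicate 1 the unstimulated median was 2.35, and without Itgav siRNA PDGF-BB replicate 3 the PDGF-BB median was 2.54. The single log2 fold changes were then 1.46 (Slfn5) to 4.48 (Slfn8) without a stimulus and 1.95 (Slfn5) to 5.03 (Usp18 and Slfn8) with PDGF-BB.

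Isg15 (ENSMUSG00000035692, chr4:156199424-156200818, minus strand, GRCm38), the modifier itself, was the most abundant of the 9 genes in Itgav siRNA cells. With TGF-β it stood at 100, 88.7 and 101 CPM in Itgav siRNA cells, against 6.21, 6.45 and 10.4 CPM in scramble cells. In PDGF-BB it reached 416, 416 and 299 CPM in Itgav siRNA cells against 14.1, 13.6 and 16.2 CPM in scramble cells. Unstimulated cells had 427, 395 and 469 CPM in Itgav siRNA cells against 8.25, 37.9 and 35.4 CPM in scramble cells. Itgav siRNA cells with TGF-β were thus well below the other Itgav siRNA cells and still above every scramble library. The log2 fold changes were 3.66 ± 0.33 with TGF-β (12.6-fold), 4.68 ± 0.3 with PDGF-BB (25.7-fold) and 4 ± 0.28 without a stimulus (16-fold; SE, n = 3 libraries a group here and below). Without scramble unstimulated replicate 1 the last was 3.55, and without Itgav siRNA PDGF-BB replicate 3 that with PDGF-BB was 4.83.

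Uba7 (ENSMUSG00000032596, chr9:107975505-107984060, plus strand), the E1 enzyme, moved less. With TGF-β it stood at 14.7, 12.3 and 12.6 CPM in Itgav siRNA cells against 6.44, 5.11 and 6.25 CPM in scramble cells. In PDGF-BB it reached 55.4, 50.9 and 39.8 CPM in Itgav siRNA cells against 9.7, 8.49 and 10.8 CPM in scramble cells, and without a stimulus 56, 48.8 and 59.4 CPM in Itgav siRNA cells against 7.33, 13.1 and 11.9 CPM in scramble cells. The gap was narrowest with TGF-β, at a log2 fold change of 1.15 ± 0.19 (2.23-fold), against 2.33 ± 0.15 with PDGF-BB (5.04-fold) and 2.35 ± 0.15 without a stimulus (5.11-fold). With the library that stood apart left out of its group, the value was 2.46 with PDGF-BB and 2.13 without a stimulus. In the annotation Gm20661 overlaps Uba7 on the same strand and shares 4.74% of the 50-base windows of the main Uba7 transcript. Some of the Uba7 counts are therefore uncertain.

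Ube2l6 (ENSMUSG00000027078, chr2:84798828-84810335, plus strand), the E2 enzyme, had the smallest siRNA difference of the 9 genes with TGF-β and the highest scramble level of the 9 with TGF-β. With TGF-β it stood at 52.9, 48.1 and 52.5 CPM in Itgav siRNA cells against 31, 32.8 and 34.8 CPM in scramble cells. With PDGF-BB it stood at 123, 117 and 95.1 CPM in Itgav siRNA cells against 19.1, 21.6 and 21.6 CPM in scramble cells. Without a stimulus it stood at 143, 135 and 149 CPM in Itgav siRNA cells against 17.9, 27.6 and 28.1 CPM in scramble cells. With TGF-β the Itgav siRNA libraries were the lowest of their kind and the scramble libraries the highest of theirs, so the groups came closest there. The siRNA difference was 0.64 ± 0.12 on the log2 scale with TGF-β (1.55-fold), 2.43 ± 0.12 with PDGF-BB (5.39-fold) and 2.54 ± 0.11 without a stimulus (5.82-fold). With the library that stood apart left out of its group, the value was 2.54 with PDGF-BB and 2.35 without a stimulus.

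Herc6 (ENSMUSG00000029798, chr6:57581000-57664632, plus strand), the ligase, also had its narrowest gap with TGF-β. With TGF-β it stood at 25.7, 29.9 and 27.7 CPM in Itgav siRNA cells against 17.2, 15.2 and 17 CPM in scramble cells. With PDGF-BB it stood at 140, 171 and 117 CPM in Itgav siRNA cells against 13.6, 17.8 and 17.5 CPM in scramble cells. Without a stimulus it stood at 148, 148 and 167 CPM in Itgav siRNA cells against 16.6, 24.4 and 23.7 CPM in scramble cells. Its scramble values lay close together in the 3 media, and the Itgav siRNA values with TGF-β lay far below those of the other media. On the log2 scale the siRNA difference was 0.76 ± 0.15 with TGF-β (1.69-fold), 3.13 ± 0.13 with PDGF-BB (8.76-fold) and 2.84 ± 0.13 without a stimulus (7.17-fold). With the library that stood apart left out of its group, the value was 3.26 with PDGF-BB and 2.68 without a stimulus. In the annotation Gm45193 lies on the same strand and shares 23.8% of the 50-base windows of the main Herc6 transcript, so some of these counts are uncertain.

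Usp18 (ENSMUSG00000030107, chr6:121245906-121270917, plus strand), the protease that removes ISG15, was low in every scramble library. With TGF-β it stood at 60.9, 57.7 and 65.8 CPM in Itgav siRNA cells against 5.45, 3.6 and 4.46 CPM in scramble cells. In PDGF-BB it reached 169, 183 and 139 CPM in Itgav siRNA cells against 4.95, 4.74 and 6.43 CPM in scramble cells. Unstimulated cells had 182, 151 and 181 CPM in Itgav siRNA cells against 3.35, 13.5 and 12.3 CPM in scramble cells. Every Itgav siRNA library was far above every scramble library, those with TGF-β included. Its log2 fold change was 3.78 ± 0.27 with TGF-β (13.7-fold), 4.92 ± 0.24 with PDGF-BB (30.4-fold) and 4.15 ± 0.22 without a stimulus (17.8-fold), and without the libraries that stood apart 5.03 with PDGF-BB and 3.72 without a stimulus.

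The 4 Schlafens lie close together on chromosome 11. Slfn8 (ENSMUSG00000035208, chr11:83002158-83020810, minus strand), a long Schlafen, was low in scramble cells. It stood at 10.5, 12 and 9.79 CPM in Itgav siRNA cells against 0.754, 0.753 and 0.463 CPM in scramble cells with TGF-β. In PDGF-BB it reached 74.8, 86.1 and 60.9 CPM in Itgav siRNA cells against 1.92, 3.24 and 2.27 CPM in scramble cells. Unstimulated cells had 77.6, 61.9 and 79.1 CPM in Itgav siRNA cells against 1.51, 3.35 and 3.15 CPM in scramble cells. The TGF-β libraries were the lowest under both siRNAs, and those of scramble cells rest on only 13, 14 and 8 counts. Slfn8 had log2 fold changes of 4.02 ± 0.31 with TGF-β (16.2-fold), 4.9 ± 0.18 with PDGF-BB (29.9-fold) and 4.78 ± 0.18 without a stimulus (27.5-fold).

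Slfn9 (ENSMUSG00000069793, chr11:82978390-82991830, minus strand), its neighbour, was already well expressed in scramble cells and moved less. It stood at 33.2, 36.6 and 33.7 CPM in Itgav siRNA cells against 13.1, 14.6 and 14.1 CPM in scramble cells with TGF-β. With PDGF-BB it stood at 161, 173 and 135 CPM in Itgav siRNA cells against 39.6, 45.5 and 42.5 CPM in scramble cells. Unstimulated cells had 172, 171 and 173 CPM in Itgav siRNA cells against 42.7, 52.8 and 57 CPM in scramble cells. With TGF-β the Itgav siRNA libraries were below the scramble libraries of the other media. The siRNA difference was 1.31 ± 0.11 on the log2 scale with TGF-β (2.48-fold), 1.88 ± 0.088 with PDGF-BB (3.68-fold) and 1.76 ± 0.087 without a stimulus (3.39-fold). With the library that stood apart left out of its group, the value was 1.98 with PDGF-BB and 1.64 without a stimulus. Slfn8 and Slfn9 are similar in sequence: 9.82% of the 50-base windows of the main Slfn8 transcript also occur in Slfn9, and 10.7% in Slfn10-ps, so reads from these stretches could be counted for either gene.

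Slfn2 (ENSMUSG00000072620, chr11:83065112-83070678, plus strand), the short Schlafen, stood at 14.4, 14.6 and 17.1 CPM in Itgav siRNA cells against 4.06, 2.63 and 3.7 CPM in scramble cells with TGF-β. In PDGF-BB it reached 56.4, 46 and 34.3 CPM in Itgav siRNA cells against 8.28, 8.85 and 9.53 CPM in scramble cells. Unstimulated cells had 30.8, 22.8 and 26.1 CPM in Itgav siRNA cells against 2.57, 9.34 and 7.94 CPM in scramble cells. Slfn2 was the only one of the 9 genes with its highest Itgav siRNA level in PDGF-BB and no overlap with the unstimulated libraries. Its siRNA differences in the 3 media were 2.15 ± 0.3 on the log2 scale with TGF-β (4.45-fold), 2.36 ± 0.23 with PDGF-BB (5.13-fold) and 2.02 ± 0.25 without a stimulus (4.05-fold), and without the libraries that stood apart 2.52 with PDGF-BB and 1.62 without a stimulus.

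Slfn5 (ENSMUSG00000054404, chr11:82951349-82964840, plus strand), a long Schlafen, had the lowest level of the 9 in Itgav siRNA cells. It stood at 2.06, 2.59 and 2.35 CPM in Itgav siRNA cells against 1.68, 1.56 and 0.752 CPM in scramble cells with TGF-β. With PDGF-BB it stood at 12.4, 17.4 and 11.3 CPM in Itgav siRNA cells against 4.14, 4.38 and 3.1 CPM in scramble cells. Without a stimulus it stood at 20.2, 15.5 and 15.4 CPM in Itgav siRNA cells against 4.17, 5.99 and 6.39 CPM in scramble cells. With TGF-β all Slfn5 values were low, and the gap between the siRNA groups was narrow. Its log2 fold change was 0.8 ± 0.31 with TGF-β (1.75-fold), 1.83 ± 0.2 with PDGF-BB (3.57-fold) and 1.63 ± 0.19 without a stimulus (3.1-fold). Antisense genes overlap Slfn5, Slfn2 and Usp18, and without a stated strand setting their reads cannot be told apart.

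**Figure D2:**
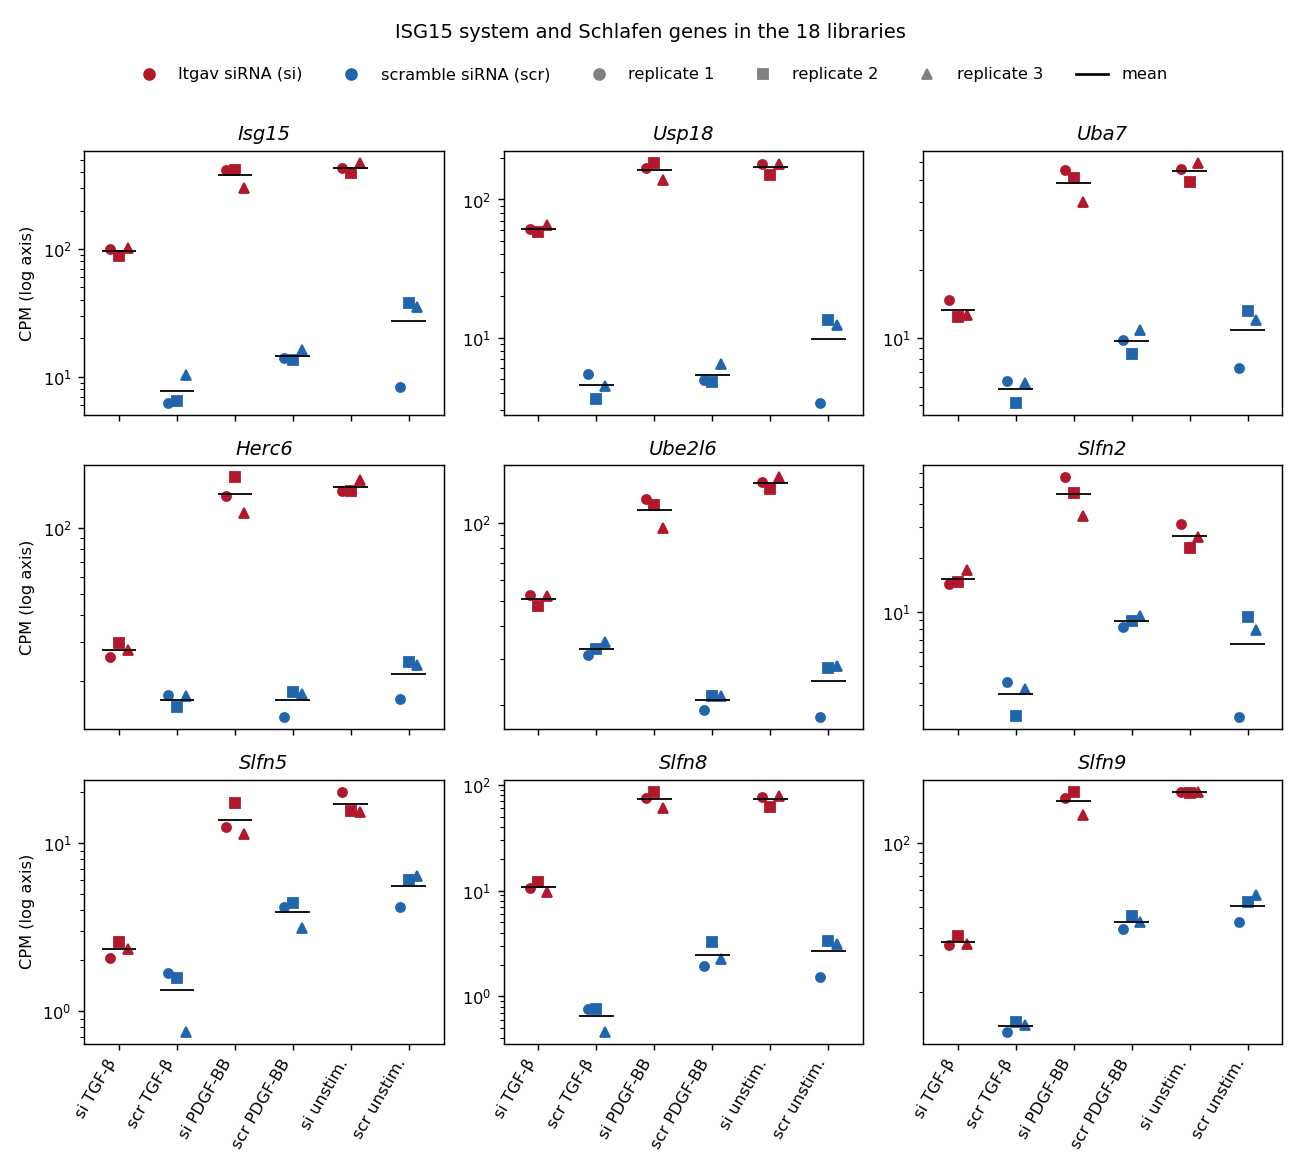
Level of the 9 genes in CPM (vertical axes, log scale, different ranges) in each of the 18 libraries, grouped by siRNA and medium along the horizontal axis. Red symbols are Itgav siRNA libraries, blue symbols scramble libraries, shapes are replicates and bars are group means of 3. The red symbols are above the blue ones of the same medium in every panel, and in scramble unstimulated cells replicate 1 (circle) is the lowest of the 3 for each gene.

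**Figure D3:**
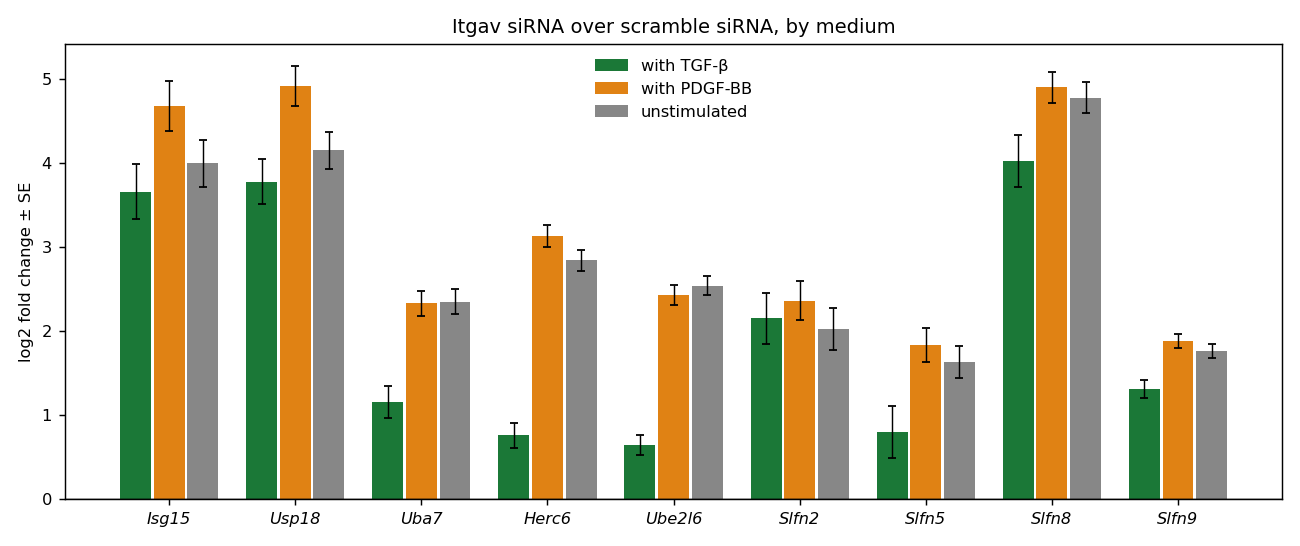
Log2 fold change of Itgav siRNA over scramble siRNA for the 9 genes (vertical axis; bars ± SE, 3 libraries a group) with TGF-β (green), with PDGF-BB (orange) and without a stimulus (grey). Ube2l6 and Herc6 have short TGF-β bars (0.64 and 0.76) beside tall ones in the other media. The 3 bars are closest in height for Slfn2 (2.15, 2.36 and 2.02) and Slfn9 (1.31, 1.88 and 1.76).

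Whether the siRNA difference itself changed with the medium was tested as a difference of log2 fold changes across all genes (edgeR's quasi-likelihood test, Benjamini-Hochberg adjustment over 15832 genes, called at an adjusted p under 0.05). The test subtracts siRNA comparisons that were known when the genes were chosen, so its p-values for these genes are not independent of that choice. Between TGF-β and no stimulus the siRNA difference was smaller with TGF-β for 4 of the 9 genes, 3 of the 5 conjugation genes and Slfn9, and larger for none, while 23.2% of all genes were called, 11% lower and 12.2% higher. The change in the siRNA difference was -2.08 ± 0.2 on the log2 scale for Herc6 (adjusted p = 7.6e-08), -1.9 ± 0.16 for Ube2l6 (adjusted p = 1.8e-08) and -1.2 ± 0.25 for Uba7 (adjusted p = 0.00094). Without scramble unstimulated replicate 1 these were -1.92 (adjusted p = 8.9e-08), -1.72 (adjusted p = 1.8e-09) and -0.98 (adjusted p = 0.0012). For Slfn9 it was -0.45 ± 0.14 (adjusted p = 0.024). That call did not survive leaving out any of 4 libraries in turn, scramble unstimulated replicate 1 (-0.34, adjusted p = 0.059), scramble TGF-β replicate 2 (-0.42, adjusted p = 0.071), Itgav siRNA TGF-β replicate 1 (-0.43, adjusted p = 0.052) or Itgav siRNA TGF-β replicate 3 (-0.44, adjusted p = 0.05). Isg15 (-0.34 ± 0.45, adjusted p = 0.65), Usp18 (-0.38 ± 0.39, adjusted p = 0.55), Slfn8 (-0.77 ± 0.5, adjusted p = 0.3) and Slfn2 (0.13 ± 0.4, adjusted p = 0.86) did not pass. Without scramble unstimulated replicate 1 the values of Isg15 and Usp18 changed sign, to 0.1 (adjusted p = 0.8) and 0.05 (adjusted p = 0.91), while Slfn8 stood at -0.47 (adjusted p = 0.53) and Slfn2 at 0.53 (adjusted p = 0.2). Slfn5 (-0.83 ± 0.37, adjusted p = 0.12) passed without scramble TGF-β replicate 3 (-1.11, adjusted p = 0.033). The genes were not tested against each other, and Slfn5 and Slfn8, which did not pass, had larger estimates than Slfn9, which did, with wider SEs. The SEs of Isg15 and Usp18 are wide too, and a difference the size of that in Slfn9 could not be seen in these 4 genes.

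For PDGF-BB against no stimulus the siRNA difference passed for 0 of the 9 genes in edgeR and 0 in DESeq2, with 1 at an unadjusted p under 0.05, while 18.8% of all genes were called, 9.51% higher and 9.32% lower. The differences were 0.77 ± 0.35 for Usp18 (adjusted p = 0.14), 0.69 ± 0.39 for Isg15 (adjusted p = 0.24) and 0.29 ± 0.19 for Herc6 (adjusted p = 0.3), and lay between -0.11 and 0.34 for the other 6. Without scramble unstimulated replicate 1, 3 genes passed: Usp18 (1.2, adjusted p = 0.00019), Isg15 (1.13, adjusted p = 0.00025) and Slfn2 (0.74, adjusted p = 0.034).

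The next question was what TGF-β did to these genes within each siRNA. In Itgav siRNA cells all 9 fell with TGF-β, and all 9 had their 3 TGF-β libraries below their 3 unstimulated libraries. High levels in Itgav siRNA cells were known when the genes were chosen, so these p-values are not independent of that choice either. Of all genes tested, 57.5% were called, 29.6% lower and 27.9% higher, and 33.4% had all TGF-β libraries below and 31.2% all above. The median log2 fold change of the 9 genes was -2.16, beside -0.02 over all genes. Slfn5 fell by 2.86 ± 0.21 (adjusted p = 1.2e-10), Slfn8 fell by 2.76 ± 0.15 (adjusted p = 4.1e-13), Herc6 fell by 2.47 ± 0.13 (adjusted p = 1.5e-13) and Slfn9 fell by 2.32 ± 0.091 (adjusted p = 1.3e-15). Isg15 fell by 2.16 ± 0.25 (adjusted p = 1.1e-07), Uba7 fell by 2.05 ± 0.15 (adjusted p = 4.9e-11), Usp18 fell by 1.48 ± 0.18 (adjusted p = 3.4e-07) and Ube2l6 fell by 1.48 ± 0.11 (adjusted p = 7.1e-11). Slfn2 changed least and fell by 0.79 ± 0.23 (adjusted p = 0.0048). All 9 calls held in each alternative and without each library of the comparison.

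In scramble cells 8 of the 9 genes fell with TGF-β and 1, Ube2l6, rose. Of all genes tested, 48.3% were called, 24.8% lower and 23.4% higher. Slfn5 fell by 2.04 ± 0.26 (adjusted p = 1.1e-06), Slfn8 fell by 1.99 ± 0.4 (adjusted p = 0.00026), Slfn9 fell by 1.87 ± 0.11 (adjusted p = 1.7e-12), Isg15 fell by 1.82 ± 0.36 (adjusted p = 0.00024) and Uba7 fell by 0.85 ± 0.19 (adjusted p = 0.00073). Usp18 fell by 1.1 ± 0.33 (adjusted p = 0.0085), Slfn2 fell by 0.92 ± 0.33 (adjusted p = 0.026) and Herc6 fell by 0.39 ± 0.15 (adjusted p = 0.037). Ube2l6 rose by 0.43 ± 0.12 (1.34-fold, adjusted p = 0.0067). The TGF-β libraries lay below the unstimulated ones without overlap for 4 genes and above for Ube2l6 alone, where 28% and 27% of all genes did so. The rise of Ube2l6 was not called without scramble unstimulated replicate 1 (0.24, adjusted p = 0.053), while the 8 falls were, from -0.55 (Herc6, adjusted p = 0.0032) to -2.29 (Slfn8, adjusted p = 2.1e-05). Usp18 was not called without scramble unstimulated replicate 2 (-0.79, adjusted p = 0.073) or replicate 3 (-0.88, adjusted p = 0.057). Slfn2 was not called without scramble unstimulated replicate 2 (-0.59, adjusted p = 0.18) or 3 (-0.75, adjusted p = 0.11), without scramble TGF-β replicate 2 (-0.75, adjusted p = 0.12), or in a fit of only the groups compared (-0.92, adjusted p = 0.052). Herc6 lost its call without scramble unstimulated replicate 2 (-0.29, adjusted p = 0.17) or 3 (-0.31, adjusted p = 0.15), without scramble TGF-β replicate 1 (-0.41, adjusted p = 0.064), 2 (-0.33, adjusted p = 0.14) or 3 (-0.41, adjusted p = 0.062), and in DESeq2 (-0.38, adjusted p = 0.053). The TGF-β changes in the 2 kinds of cell and the siRNA differences share libraries and are not independent.

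**Figure D4:**
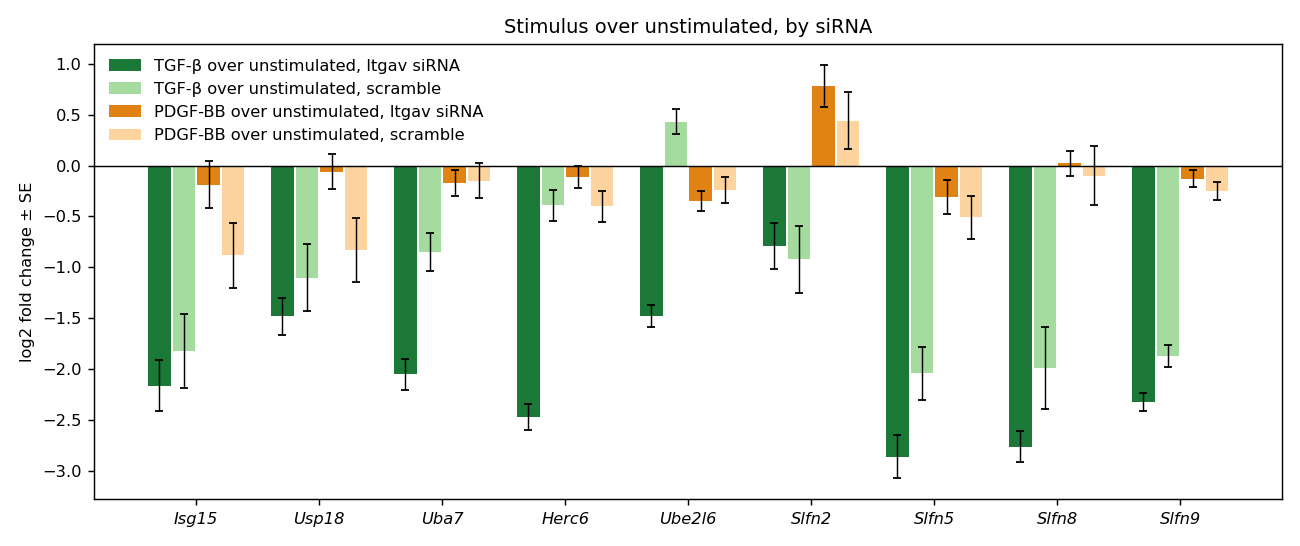
Log2 fold change of each stimulus over no stimulus for the 9 genes (vertical axis; bars ± SE, 3 libraries a group), in Itgav siRNA cells (dark) and scramble cells (light), for TGF-β (green) and PDGF-BB (orange). All dark green bars are below 0, the light green bar of Ube2l6 is above 0 at 0.43, and the dark orange bar of Slfn2 is the tallest upward bar at 0.78.

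With PDGF-BB 1 of the 9 genes rose and 1 fell in Itgav siRNA cells, where 36.4% of all genes were called, 17.2% higher and 19.2% lower. Slfn2 rose by 0.78 ± 0.21 (1.72-fold, adjusted p = 0.0047), with its 3 PDGF-BB libraries above its 3 unstimulated ones, as for 22.7% of all genes. Ube2l6 fell by 0.35 ± 0.1 (adjusted p = 0.01), with its 3 PDGF-BB libraries below, as for 25.5% of all genes. Without Itgav siRNA PDGF-BB replicate 3 the rise of Slfn2 was 0.94 (adjusted p = 0.0016), and Ube2l6 was not called (-0.24, adjusted p = 0.081). In DESeq2 neither was called (adjusted p = 0.057 for Slfn2 and 0.051 for Ube2l6). The other 7 had log2 fold changes from -0.31 (Slfn5, adjusted p = 0.17) to 0.02 (Slfn8, adjusted p = 0.91).

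In scramble cells with PDGF-BB, 4 genes fell. Isg15 fell by 0.88 ± 0.32 (adjusted p = 0.035), Usp18 fell by 0.83 ± 0.31 (adjusted p = 0.039), Herc6 fell by 0.4 ± 0.15 (adjusted p = 0.039) and Slfn9 fell by 0.25 ± 0.091 (adjusted p = 0.034). Of all genes tested, 36.1% were called, 19.2% lower and 16.9% higher. None of the 9 had its PDGF-BB libraries all below (22.8% of all genes) or all above (21.3%) the unstimulated ones, and scramble unstimulated replicate 1 lay within or below the PDGF-BB range for each of the 9. No gene was called without scramble unstimulated replicate 2 or 3 or scramble PDGF-BB replicate 1, nor in a fit of only the groups compared, 2 were called without scramble PDGF-BB replicate 2 or 3, and 6 without scramble unstimulated replicate 1 (Isg15 at -1.32, Usp18 at -1.26, Slfn5 at -0.68, Herc6 at -0.56, Ube2l6 at -0.43 and Slfn9 at -0.37).

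Levels of different genes were compared as CPM per kilobase of transcript. In Itgav siRNA cells Isg15 had the highest mean of the 9 in every medium, 128 with TGF-β, 498 with PDGF-BB and 570 without a stimulus, followed by Usp18 (34.9, 93.3 and 97.5) and Ube2l6 (32.8, 72.4 and 92.2). Usp18 and Ube2l6 differed by less than the sum of their SDs in each of these groups, as did Slfn8 (21.3 ± 3.23) and Uba7 (20.5 ± 1.55) without a stimulus. Slfn5 was the lowest in each (0.457, 2.49 and 3.17). In scramble cells with TGF-β the order was different, with Ube2l6 at 21.2 ± 1.23, Isg15 at 10.1 ± 3.08 and Herc6 at 3.87 ± 0.221 (SD, n = 3), and Slfn5 and Slfn8 the lowest, at 0.221 each.

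The likeness of profiles was measured over all 18 libraries, as the root mean square difference of centred log2(CPM + 1) values, with a smaller value for more alike profiles. Among the 9 genes the most alike were Slfn5 and Slfn9 (0.307), Uba7 and Herc6 (0.335) and Isg15 and Usp18 (0.353), and the most unlike were Usp18 and Slfn5 (1.55). Slfn8 was nearer to Isg15 (0.441) than to its neighbour Slfn9 (1.17). Among 10897 other genes, the nearest to Isg15 were Rtp4 (0.322), Irf7 (0.323) and Ifit3b (0.429). The nearest to Usp18 was Rtp4 (0.382), to Uba7 H2-T23 (0.15), to Ube2l6 H2-K1 (0.21), to Herc6 Sp100 (0.244), to Slfn2 Rigi (0.403), to Slfn5 Mill2 (0.227), to Slfn8 Ddx60 (0.297) and to Slfn9 Tmem140 (0.184).

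Which transcripts carried the counts was read from the transcript table. A single transcript held at least 95.1% of the counts over all libraries for Isg15, Usp18, Herc6, Ube2l6, Slfn2, Slfn5 and Slfn9. For Uba7 the main of 15 transcripts held 72.8%, and transcripts with a retained intron made up 18.1% to 19.3% in Itgav siRNA cells against 8% to 12.4% in scramble cells without a stimulus. Their means were 20.5% in Itgav siRNA cells and 20.2% in scramble cells with PDGF-BB, and 22.4% and 25.6% with TGF-β, and no test was made of these shares. In scramble cells these shares rest on 160 to 258 counts of the gene without a stimulus. Slfn8 was spread over 6 transcripts, the main one at 43.2%, and its share ranged from 4.52% to 76.7% between scramble unstimulated libraries, so no transcript of Slfn8 is described further.

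Other genes of ubiquitin-like conjugation and of interferon signalling were listed for comparison and, unlike the 9, were tested between siRNAs (edgeR, adjusted over all genes). Of 8 partners tested of USP18 and ISG15, among them the interferon receptor chains and their kinases, 5 were higher in Itgav siRNA cells with TGF-β, 6 with PDGF-BB and 7 without a stimulus, and 1 was lower, with TGF-β. Of all genes tested 24.1%, 29.4% and 25.9% were higher in those media, and 24.3%, 29.9% and 27.5% lower. In Itgav siRNA cells TGF-β lowered 6 of the 8 and raised 1, where 29.6% of all genes were lower and 27.9% higher. In that comparison Jak1, a kinase that works with the interferon receptor chains, was down by 0.75 ± 0.045 (adjusted p = 2.5e-12). The siRNA difference of Stat2, a transcription factor of the interferon signal, was smaller with TGF-β than without a stimulus by 1.22 ± 0.19 on the log2 scale (adjusted p = 6.1e-05).

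Genes of the ubiquitin family and its enzymes were called in both directions. Beside the counts below, 24.1% of all genes tested were called higher and 24.3% lower with TGF-β. The shares were 29.4% and 29.9% with PDGF-BB, and 25.9% and 27.5% without a stimulus. Of 8 other E1 enzymes, 1 was higher and 2 lower in Itgav siRNA cells with TGF-β, 3 higher and 4 lower with PDGF-BB, and 1 higher and 3 lower without a stimulus, with median log2 fold changes of -0.01, -0.02 and -0.07. Of 9 E2 enzymes near Ube2l6, 4 were lower and the other 5 not called with TGF-β, 2 higher and 5 lower with PDGF-BB, and 1 higher and 5 lower without a stimulus (medians -0.09, -0.23 and -0.29). Of 12 other modifiers tested, 4 were higher and 5 lower with TGF-β, 2 higher and 7 lower with PDGF-BB, and 2 higher and 6 lower without a stimulus (medians -0.17, -0.22 and -0.13). In unstimulated cells the autophagy modifier Atg12 was up by 1.11 ± 0.049 (adjusted p = 3.5e-14) and Rps27a, a ribosomal protein made as a fusion with ubiquitin, down by 1.42 ± 0.063 (adjusted p = 4.3e-14). Of 7 other proteases, 1 was higher and 3 lower with TGF-β, 1 higher and 4 lower with PDGF-BB, and 1 higher and 4 lower without a stimulus (medians -0.04, -0.28 and -0.38). Without a stimulus Usp2 was down by 0.8 ± 0.079 (adjusted p = 2.2e-08). Of 6 other ligases, 2 were higher and 2 lower with TGF-β, 4 higher and 1 lower with PDGF-BB, and 1 higher and 1 lower without a stimulus (medians -0.07, 0.54 and -0.03). Without a stimulus Trim25, which also joins ISG15 to targets, rose by 1.64 ± 0.12 (adjusted p = 2.3e-10) and Herc4 fell by 0.27 ± 0.056 (adjusted p = 0.00029).

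Of 6 other Schlafens listed, 2 passed the filter on low counts, Slfn3 and a Slfn10-ps gene (ENSMUSG00000121398), and Slfn1 was at 0 in all libraries. Both were called higher in Itgav siRNA cells in each medium, as were 24.1% (TGF-β), 29.4% (PDGF-BB) and 25.9% (no stimulus) of all genes, at mean levels below 5 CPM. Slfn3 was up by 0.77 ± 0.22 on the log2 scale with TGF-β and 0.76 ± 0.21 with PDGF-BB. Without a stimulus it was up by 0.53 ± 0.22 (edgeR, adjusted p = 0.046). Of the 50-base windows of the main transcripts, 10.7% in Slfn8 and 8.44% in Slfn9 also occur in Slfn10-ps, so counts of Slfn10-ps are uncertain. Slfn10-ps averaged 1.58 CPM in Itgav siRNA cells against 0.582 CPM in scramble cells with TGF-β, 4.63 against 0.622 CPM with PDGF-BB and 1.31 against 0.486 CPM without a stimulus. Neither was called with TGF-β in either kind of cell (adjusted p of 0.23 to 0.85), and Slfn10-ps rose with PDGF-BB in Itgav siRNA cells by 1.81 ± 0.36 (adjusted p = 0.00042).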

How the data were processed

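The sources name HISAT2 2.2.1, StringTie 2.1.6 and the mouse build mm10, per the submitters' processing notes. The authors deposited estimated counts for 57180 genes and 149132 transcripts, and 76.2% of the gene values above 0 were whole. The strand setting is not given in the sources used here. Counts were rounded and fitted with edgeR 4.0.16 (R 4.3.3) for all 18 libraries, with TMM factors of 0.925 to 1.07, filterByExpr at a minimum count of 10 (15832 genes kept) and 12 residual degrees of freedom for its quasi-likelihood F-test. Benjamini-Hochberg adjustment ran over all genes tested, with calls under 0.05, and an SE is the log2 fold change divided by the root of F. CPM values use TMM-scaled totals. The fit was tested on simulated data. The alternatives tried were DESeq2 1.42.0, its size factors in edgeR, total counts only, no filter on low counts, a filter at a mean of 1 CPM, a fit of only the groups compared, counts summed over transcripts, a replicate block, and each library of a comparison left out. Coordinates of genes are from GENCODE M21 (GRCm38, the assembly behind mm10), which holds 90.8% of the gene IDs. Promoter sequences and gene starts are from RefSeq, build GRCm38.p6, and 50-base windows of transcripts were matched to all other genes.

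The members, gene lists and tests were chosen with earlier results of these data known. All 9 genes are named in every comparison. The genes of nearest profile were taken among tested genes of at least 5 CPM, 3 for Isg15 and 1 for each other gene. From each other list up to 2 genes with the smallest p in a comparison were named, and not every such gene is printed.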

Additional observations from a re-analysis of the deposited data

Results flagged for a closer look

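For 4 genes the effect of the Itgav siRNA differed between TGF-β and unstimulated cells in a direct test of the difference (edgeR's quasi-likelihood test, adjusted over all genes), where 23.2% of all genes were called, 11% lower and 12.2% higher. The siRNA comparisons behind this test were known when the genes were chosen. The difference of log2 fold changes was -1.2 for Uba7 (adjusted p = 0.00094), -2.08 for Herc6 (adjusted p = 7.6e-08), -1.9 for Ube2l6 (adjusted p = 1.8e-08) and -0.45 for Slfn9 (adjusted p = 0.024), each smaller with TGF-β. The call of Slfn9 was lost when any of 4 libraries was left out, scramble unstimulated replicate 1 among them (-0.34, adjusted p = 0.059).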

How the results depend on the processing

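The median log2 fold changes between siRNAs stayed within 2.35 to 2.66 without a stimulus, 1.26 to 1.34 with TGF-β and 2.36 to 2.54 with PDGF-BB when a library was left out. With a library left out, the number of the 9 genes called was 9 in each case for TGF-β in Itgav siRNA cells, 6 to 8 for TGF-β in scramble cells, 1 to 3 for PDGF-BB in Itgav siRNA cells, 0 to 6 for PDGF-BB in scramble cells, 3 to 5 for the TGF-β difference of siRNA effects and 0 to 3 for the PDGF-BB difference. Without a filter on low counts, in a fit that left the F statistic undefined for some genes, 7 were called for PDGF-BB in scramble cells, 4 for PDGF-BB in Itgav siRNA cells, 7 for the TGF-β difference and 3 for the PDGF-BB difference. PDGF-BB in scramble cells gave 2 calls with total counts only, 1 in DESeq2 and 0 with only the groups compared, and PDGF-BB in Itgav siRNA cells gave 0 in DESeq2. The shares of all genes called in these fits are not given here, so the counts are not read as particular to the 9 genes. The cause of the changes in calls was not tested.

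Values that changed sign when a library was left out all belong to genes not called. Their lowest and highest values were -0.67 and 0.1 (Isg15), -0.7 and 0.05 (Usp18) and -0.21 and 0.53 (Slfn2) for the TGF-β difference. They were -0.19 and 0.2 (Uba7), -0.23 and 0.08 (Ube2l6), -0.08 and 0.42 (Slfn8) and -0.01 and 0.37 (Slfn5) for the PDGF-BB difference. They were -0.37 and 0.02 (Uba7) and -0.4 and 0.09 (Slfn8) for PDGF-BB in scramble cells, and -0.11 and 0.14 (Slfn8), -0.15 and 0.04 (Usp18) and -0.27 and 0.01 (Herc6) for PDGF-BB in Itgav siRNA cells.

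Deviations of libraries with the same replicate number had correlations of -0.267 to 0.391 (median 0.0599). For different numbers they were -0.361 to 0.384 (median -0.0183), so the ranges overlapped widely. The highest was between scramble and Itgav siRNA PDGF-BB replicate 1 (0.391). A replicate block changed no call: 9 genes were called for TGF-β in both kinds of cell, 2 for PDGF-BB in Itgav siRNA cells and 4 in scramble cells, and 4 and 0 for the TGF-β and PDGF-BB differences. Scaling by total counts only moved the median of all genes with TGF-β to -0.17 in Itgav siRNA cells and -0.12 in scramble cells (against -0.02 and -0.01 with TMM), with all 9 calls kept in each. Low counts limit Slfn8 in scramble cells with TGF-β.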
